A study of Mus musculus with 50 samples.

Results

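The translation initiation factor genes were followed across mammary gland tumors of p53R270H/+WAPCre mice. Their members are the rows of the deposited expression table whose gene name starts with Eif1 to Eif6. Rows for the eIF4E-binding proteins, the eIF2 kinases, the Y-linked Eif2s3y and names that carry the pseudogene tag -ps were set aside, and a mean of at least 0.5 RPKM over the tumors was required. RPKM counts the reads of a gene per kilobase of its length, after scaling for library size. Of 60 rows with such a name, 46 were members, out of 37701 rows in the table and 16733 rows that passed the same limit and were tested. They comprise 14 genes for subunits of eIF3 and 32 others.

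Female mice entered the study at 8 weeks of age, carried the mutant p53 allele with a Cre recombinase driven by the WAP promoter of mammary epithelium, and were injected subcutaneously every other day until a tumor formed. The groups received vehicle, insulin, glargine, X10 or IGF1, with 10 tumors each and 50 in all. Glargine and X10 are insulin analogues with altered residues; IGF1 is the insulin-like growth factor. Labels title the vehicle tumors untreated. All 50 tumors had been chosen by the authors as EMT-like tumors with a latency near the median of their group. The paper reports a shorter latency in the X10 and IGF1 groups. Mouse age and length of treatment therefore cannot be told apart from the ligand given. The tumors were taken at 1 cm3, 24 h after the last injection, a time the authors chose to study long-term effects. The paper does not fully exclude a direct effect of the ligands on tumor cell metabolism. In these bulk samples, fewer cells of a type and less RNA per cell cannot be told apart.

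Translation starts when the small ribosomal subunit, carrying eIF1, eIF1A, eIF3, eIF5 and the eIF2 complex with the initiator tRNA, is brought to the mRNA cap by eIF4F. eIF4F consists of the cap-binding protein eIF4E, the scaffold eIF4G and the helicase eIF4A, which is helped by eIF4B and eIF4H. eIF2B recharges eIF2 with GTP, eIF5B joins the subunits, and eIF6 keeps the large subunit free until it is needed. Insulin and IGF1 receptors signal to these steps through mTOR and ERK, mainly by phosphorylation, which RNA levels do not show.

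Some initiation factor mRNAs resemble those of ribosomal proteins, which begin with a run of pyrimidines at the cap (a TOP motif). The letters around the annotated start are therefore shown for a few members: those with the longest runs, members near either end of the correlations with ribosomal protein genes, the genes Eif3m and Eif2b5 from the group comparisons, and Eif4b, which reviews list among the TOP-like factors. RefSeq promoters (GRCm38.p6) were matched for 37 of the 46 members. Each window runs from 10 bases before the start to 19 bases after it, and capitals mark the unbroken run of C and T that covers the start base.
Eif3f, chr7:108934405-108934434, plus strand: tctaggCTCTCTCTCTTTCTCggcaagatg
Eif2s3x, chrX:94212632-94212661, minus strand: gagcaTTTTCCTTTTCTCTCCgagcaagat
Eif3l, chr15:79075213-79075242, plus strand: gagTTCTTCTTCCgctctctcccacgggct
Eif2b5, chr16:20498807-20498836, plus strand: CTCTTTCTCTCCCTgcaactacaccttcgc
Eif3k, chr7:28981869-28981898, minus strand: aaccggcgctggtgctgaaagcgcctttcc
Eif4b, chr15:102073763-102073792, plus strand: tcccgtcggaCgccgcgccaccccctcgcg
Eif3a, chr19:60790674-60790703, minus strand: ctcgggcggcggcgctgccgccgcgaggga
Eif4g1, chr16:20672717-20672746, plus strand: gcgcagctccgccctctgcgccggtcacgt
Eif3m, chr2:105017008-105017037, minus strand: cggtcggcgtgtttctggatcggagcgtct
Eif3f and Eif2s3x have 11 pyrimidines from the start base onward, Eif2b5 has 4, Eif3l has 3 and Eif4b has 1, while Eif3k, Eif3a, Eif4g1 and Eif3m have none at the annotated base. A run of at least 6 from the start base was found in 2 of 37 members (5.41%) and in 3.5% of all genes with a promoter.

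The 6 letters CACGTG, an E-box that reads the same on both strands and is known as a Myc binding motif, were searched from 250 bases before to 50 after the start. They were found in 10 of 37 members (27%) and in 8.09% of all genes with a promoter. These 27025 genes, also the background for the pyrimidine run, were not limited to genes expressed in the tumors, as the members were. Windows of 30 bases with the E-box in capitals are shown for the cap-complex genes that carry it and an eIF3 gene. Eif4e and Eif4g1 each have another match that is not shown.
Eif4e, chr3:138527192-138527221, plus strand: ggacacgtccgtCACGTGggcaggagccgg
Eif4a1, chr11:69672595-69672624, minus strand: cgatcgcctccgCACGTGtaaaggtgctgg
Eif4g1, chr16:20672661-20672690, plus strand: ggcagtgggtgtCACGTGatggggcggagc
Eif4h, chr5:134639488-134639517, minus strand: cggccgccgcacCACGTGggccgcagagcg
Eif3f, chr7:108934335-108934364, plus strand: caagatatgattCACGTGgtataaatttag
A match describes letters in this window and is no evidence of binding.

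All 46 members were detected in every tumor. Mean levels ran from 2.6 RPKM for Eif5a2, the minor form of eIF5A, to 1499 RPKM for Eif4g2, an eIF4G relative that lacks the cap-binding protein's docking site. After Eif4g2 came Eif1, a start-codon selection factor, at 661 RPKM, and the helicase Eif4a1 at 630 RPKM. Eif4e3, at 5.02 RPKM, and Eif3j1, at 7.95 RPKM, were the next lowest after Eif5a2. In all, 17 members were at 100 RPKM or more and 4 were under 10 RPKM.

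This order depends on gene length. For 45 members the length behind the deposited RPKM could be recovered, and for 17 of these it was within 1 base of the median length of the gene's annotated transcripts, many of which are short fragments. For Eif4g2 it was 599 bases, against 7995 bases for its transcript with the longest coding sequence. Per kilobase of that main transcript and per M reads, Eif4g2 was at 112 and came 11th, while Eif5a (308), Eif4a1 (268) and Eif1 (252) led. Eif5a2 and Eif4e3 stayed lowest at 2.58 and 5.02. Comparisons of a gene between tumors are not affected by its length.

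**Figure D1:**
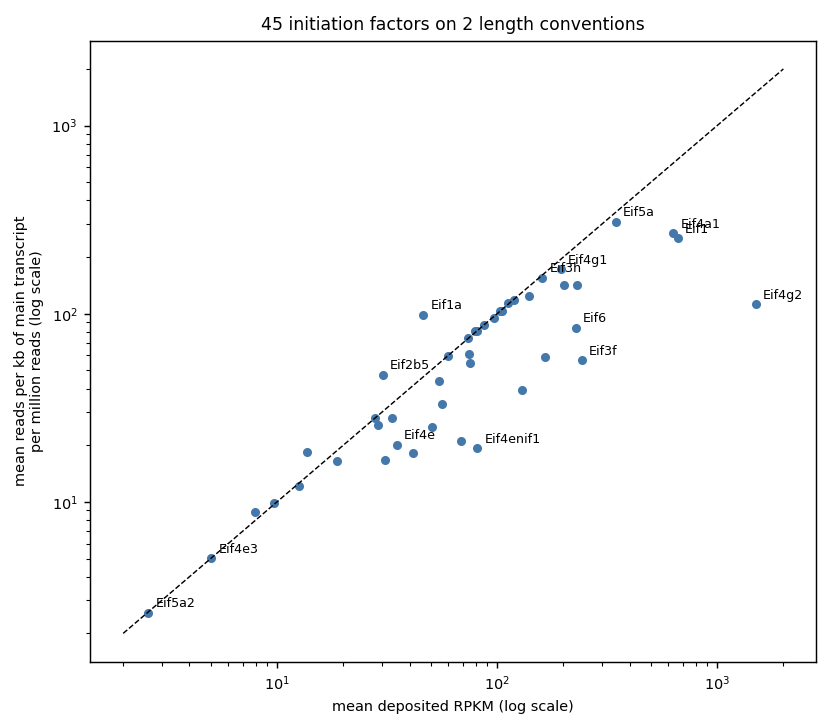
Mean level of 45 initiation factors in 50 tumors as deposited RPKM (x axis, log scale) against reads per kilobase of the main transcript per M reads (y axis, log scale), with a dashed line of equality. Eif4g2 falls from 1499 to 112, while Eif4e3 and Eif5a2 stay at the bottom.

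Members varied less between tumors than a set of protein-coding genes that was not matched to them in expression level. Their coefficient of variation (CV, the SD as a percent of the mean) had a median of 20.3%, against 26.4% over the 9693 protein-coding genes with a mean of at least 5 RPKM. Eif5a2 varied most, with a CV of 47.1% and levels from 0.242 to 6.12 RPKM. Eif4e3, a cap-binding paralog, followed at 33% and ranged from 0.867 to 11.1 RPKM. Eif2s1, the alpha subunit of eIF2 and target of its kinases, had a CV of 29.3%. The steadiest were Eif4e2, a cap-binding protein that does not join eIF4G, at 13.1%, Eif3c at 15.1% and Eif3a at 16.2%.

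Within most paralog pairs 1 form had the higher RPKM in every tumor. Eif5a was above Eif5a2 by a median of 136.2 fold (55.3 to 1929), Eif1 above Eif1b by 22.6 fold (11.7 to 43.4) and Eif4a1 above Eif4a2 by 2.75 fold (1.25 to 8.47), as ratios of RPKM. Eif4e was above Eif4e3 by 7.03 fold (1.74 to 43.3) and Eif4g1 above Eif4g3 by 3.51 fold (1.32 to 8.93). Per kilobase of main transcript the medians were 122 for Eif5a over Eif5a2, 9.7 for Eif1 over Eif1b, 4.06 for Eif4e over Eif4e3 and 3.87 for Eif4g1 over Eif4g3, each still above 1 in every tumor. That of Eif4a1 over Eif4a2 was 1.89 (0.86 to 5.84), above 1 in 49 of 50 tumors. In RPKM, Eif4e was above Eif4e2 in 2 of 50 tumors, at a median ratio of 0.596 (0.296 to 1.12). The ratio of Eif4g1 to Eif4g2 was 0.128 in RPKM but 1.52 per kilobase of main transcript, so its direction rests on the length used. Eif1a was above Eif1ax in 48 of 50 tumors, at a median RPKM ratio of 1.44 (0.784 to 4.25), and 5.72 on the main transcript. Eif3j2 was above Eif3j1 in 41 of 50 tumors and in 5 of the 10 X10 tumors, at a median ratio of 1.29 (0.77 to 1.56). They are near-identical copies, and their split of reads is uncertain.

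No member differed among the 5 treatments in the F test at an adjusted p under 0.05 (limma on log2(RPKM + 0.5), Benjamini-Hochberg over 16733 genes), where 0.102% of all tested genes did. At an unadjusted p under 0.05 there were 12 of 46, against 13.1% of all tested genes. The smallest were Eif3l (p = 0.000691, adjusted p = 0.125), Eif3m (0.000771, 0.128) and Eif1 (0.00373, 0.188). Both Eif3l and Eif3m are subunits of eIF3, the scaffold that holds the small subunit, the factors and the mRNA together.

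X10 and IGF1 bind the IGF1 receptor strongly, so their 20 tumors were set against the 30 tumors of the other 3 groups. Here 35 of 46 members had a positive and 11 a negative difference, with a median of 0.09 log2, against -0.02 over all tested genes, of which 43.6% were positive. None passed the adjusted threshold by limma, where 0.155% of tested genes did. At an unadjusted p under 0.05, 11 members were higher and 2 lower, against 2.97% and 7.57% of all tested genes in these directions. The background depends on the scaling and on pseudogenes. It was 5.96% and 5.13% with quantile normalization and 4.11% and 6.71% with upper quartile scaling, each with 12 members higher and 2 lower. Without annotated pseudogenes it was 3.01% and 3.69%, and with a pseudogene score as a covariate 3.51% and 3.39%, where 13 members were higher and 2 lower.

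The eIF3 subunits made up 9 of the 11 higher members, with none of the 14 lower at that threshold and a median log2 difference of 0.17. Eif3e, a subunit first known as the Int6 site of mouse mammary tumor virus insertion, was at 54.6 RPKM at the lowest, 93.3 at the median and 132.2 at the highest in X10 and IGF1 tumors, and at 38.5, 69.6 and 97.9 in the others. It exceeded the mean of the other groups in 17 of 20 tumors, and the groups overlapped. Its log2 difference was 0.35 (SE 0.09, adjusted p = 0.0599 by limma). Eif3l was at 85.6, 115.95 and 153 RPKM, against 78.9, 96.8 and 139. It exceeded that mean in 18 of 20 tumors and differed by 0.25 log2 (SE 0.06, adjusted p = 0.053 by limma).

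Eif3c, a core subunit that contacts eIF1 and eIF5, was at 73.4, 84.6 and 131 RPKM (lowest, median, highest) against 67.1, 74 and 93.2. It differed by 0.20 log2 (SE 0.05, adjusted p = 0.0744 by limma), with 18 of 20 tumors above the same mean. Eif3m differed by 0.22 log2 (SE 0.06, adjusted p = 0.0879 by limma). The other higher subunits were Eif3h (0.17), Eif3d (0.17), Eif3i (0.19), Eif3k (0.19) and Eif3j1 (0.14). Eif3a, the largest subunit, differed by -0.03 log2, Eif3g by -0.08 and Eif3j2 by -0.07.

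**Figure D2:**
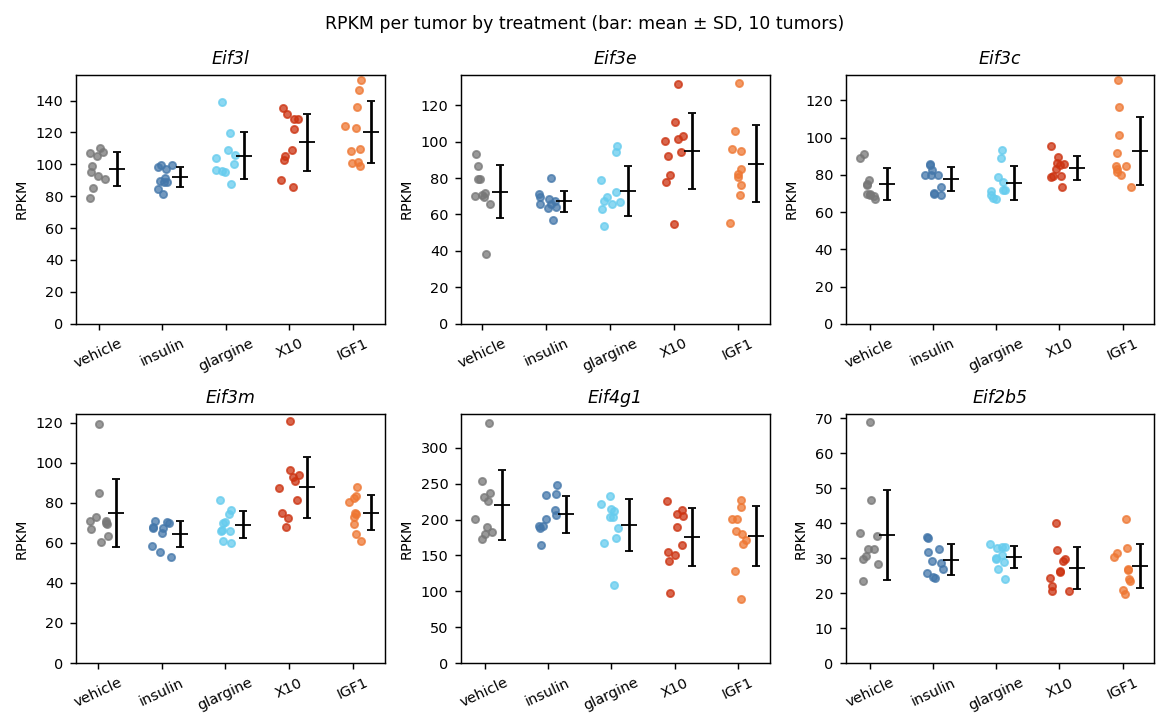
RPKM of 6 initiation factors in each tumor (points) by treatment, with the mean and SD of 10 tumors (bars) beside the points. Eif3l, Eif3e and Eif3c have higher means in the X10 and IGF1 groups, Eif3m in the X10 group, and Eif4g1 and Eif2b5 have lower means in both, with overlap throughout.

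Outside eIF3, Eif1 was higher in X10 and IGF1 tumors by 0.27 log2 (SE 0.09, adjusted p = 0.215 by limma) and Eif2s1 by 0.26 (SE 0.10, adjusted p = 0.315). Mean Eif1 was 756 RPKM in IGF1, 716 in X10 and 714 in vehicle tumors, against 601 in glargine and 519 in insulin tumors. Mean Eif2s1 was 33.7 RPKM in X10, 28.7 in vehicle and 28.6 in IGF1 tumors, against 26.3 in glargine and 22.4 in insulin tumors. Eif4g1, the main scaffold of the cap complex, was lower in X10 and IGF1 tumors. It was at 88.8 RPKM at the lowest, 181.8 at the median and 227 at the highest, against 108, 204 and 335. Its log2 difference was -0.25 (SE 0.09, adjusted p = 0.264 by limma). Eif2b5, the catalytic subunit of eIF2B, differed by -0.22 (SE 0.09, adjusted p = 0.301). Its medians were 26.5 RPKM in X10 and IGF1 tumors and 30.7 RPKM in the others.

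The remaining cap-complex genes did not pass even the unadjusted threshold. Eif4e differed by 0.16 log2 (SE 0.09), Eif4a1 by 0.12 (SE 0.08), Eif4b by 0.12 (SE 0.07) and Eif4h by 0.09 (SE 0.07). Eif5, which triggers GTP hydrolysis on eIF2, differed by 0.21 (SE 0.11). Eif6 differed by 0.12 (SE 0.10), Eif5a by 0.02 (SE 0.10) and Eif5b by -0.003 (SE 0.07).

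**Figure D3:**
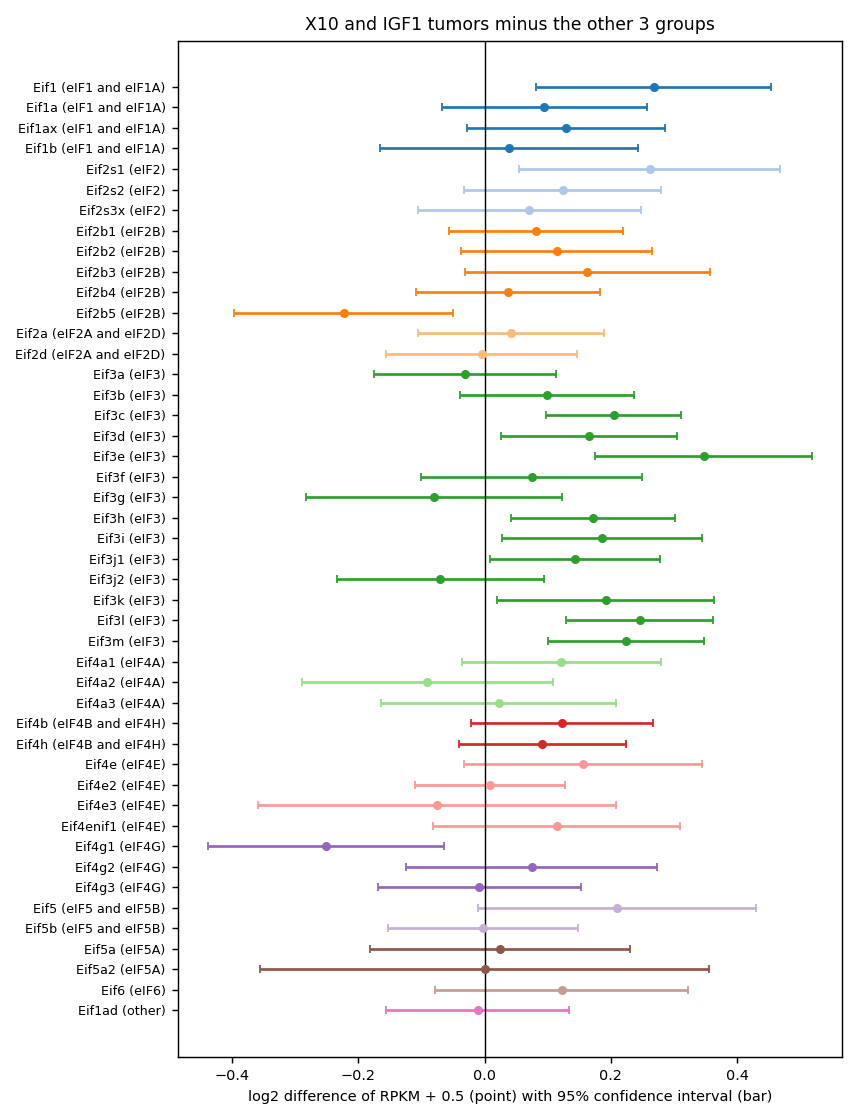
Log2 difference of each of 46 initiation factors between X10 and IGF1 tumors and the other 3 groups (points) with 95% confidence intervals (bars), coloured by complex. Intervals of 9 eIF3 subunits, Eif1 and Eif2s1 lie above 0, and those of Eif4g1 and Eif2b5 below 0.

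X10 minus insulin gave the 1 adjusted call, Eif3m. Its level was 67.7 RPKM at the lowest, 89 at the median and 121 at the highest in X10 tumors, against 53.1, 67.4 and 70.8 in insulin tumors. In 9 of 10 X10 tumors it was above the highest insulin tumor. Eif3m rose by 0.43 log2 (SE 0.09, adjusted p = 0.0419 by limma), where 0.102% of all tested genes passed. The call was lost in 16 of 50 fits that each left out 1 tumor, with adjusted p from 0.0135 to 0.138. Those 16 were the fits without insulin tumor 8, 9, 14, 15, 18, 21, 26, 27 or 37, glargine tumor 67, or 6 of the X10 tumors, tumor 95 among them. It was also lost in 8 of 15 other settings of the processing or the fit, where adjusted p was 0.065 with all rows with a nonzero value, 0.0535 without the intensity trend, 0.0932 with marker scores as covariates, 0.175 with a pseudogene score, 0.106 without annotated pseudogenes, 0.053 with only the 2 groups, 0.0665 with library size and 0.0523 by voom. In those 8 settings the difference was 0.37 to 0.43 log2, close to the 0.43 above. The epithelial score averaged 0.276 in X10 and -0.225 in insulin tumors (SD 0.821 over all tumors). The leukocyte score averaged 0.006 and 0.341 (SD 0.673), and the fibroblast score -0.11 and 0.23 (SD 0.61), in the same order. At an unadjusted p under 0.05, 8 members were higher and none lower, against 3.02% and 8.29% of all tested genes. With quantile normalization 11 were higher and none lower, against 5.66% and 5.62%, and with upper quartile scaling 12 and none, against 4.76% and 6.34%. They included Eif2s1 (0.53 log2), Eif3e (0.46), Eif1 (0.43) and Eif3l (0.29). Eif4g1 differed by -0.27 and Eif3g by -0.26, with intervals that include 0.

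Against vehicle, no member passed the adjusted threshold by limma for any ligand. Among all tested genes, 0% passed for insulin and for glargine, 0.0657% for X10 and 0.00598% for IGF1. These 4 comparisons share the vehicle tumors. For insulin 5 members had an unadjusted p under 0.05, against 11.1% of all tested genes. Of these, 1 was higher and 4 were lower, against 5.98% and 5.17%. Eif4g3, the second eIF4G scaffold, was higher by 0.39 log2 (SE 0.12, adjusted p = 0.301 by limma), and was at a median of 59.8 RPKM against 48.2 RPKM in vehicle. Eif4a3, the helicase of the exon junction complex, differed by -0.44 log2 (SE 0.14) and Eif1 by -0.43 (SE 0.14), each at adjusted p = 0.301. All 10 insulin tumors were below the vehicle mean for both. The leukocyte score, the mean standardized log2 level of its marker genes, averaged 0.341 in insulin and -0.324 in vehicle tumors (SD 0.673 over all tumors). With the marker scores in the fit, Eif4g3 differed by 0.26 log2, Eif4a3 by -0.36 and Eif1 by -0.39, and 1 member was higher and 2 lower at an unadjusted p under 0.05, against 3.08% and 4.63% of all tested genes. Eif2a, next by p among members with a positive difference, differed by 0.15, and by -0.05 with the level of its own chromosome in the fit. The median difference of the other genes of that chromosome, 3, was 0.17 log2.

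For glargine 1 member had an unadjusted p under 0.05, against 6.23% of all tested genes (3.31% higher, 2.92% lower). It was Eif4a3, at -0.37 log2 (SE 0.14, adjusted p = 0.789 by limma). Eif4g3 differed by 0.25, Eif1ax by 0.20 and Eif3b by -0.21, with intervals that include 0. For X10 there were 8, against 11%, with 4 in each direction, against 2.75% higher and 8.25% lower. That split depended on the scaling, with 8 higher and 2 lower under quantile normalization (5.04% and 5.56% of all tested genes) and under upper quartile scaling (5.48% and 5.21%). Eif3e was higher by 0.38 log2 and Eif3m by 0.24, while Eif3g differed by -0.46 (SE 0.16, adjusted p = 0.279 by limma) and Eif2b5 by -0.39.

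For IGF1 there were 6 members, against 8.84% of all tested genes. Of these, 3 were higher and 3 lower, against 4.49% and 4.34%, and all 14 eIF3 subunits had a positive difference, as did 53.4% of all tested genes. With the marker scores in the fit 12 of the 14 were positive (47.2% of all tested genes), and with the own-chromosome level 13 (50.3%). Against vehicle, positive subunits numbered 9 for X10, 7 for glargine and 2 for insulin, against 44.4%, 54.1% and 54.5% of all tested genes. For insulin the other 12 were lower, and the median over the subunits was -0.10 log2. In IGF1 tumors Eif3l was higher by 0.30 log2 (SE 0.09, adjusted p = 0.303 by limma) and was above the vehicle mean in 10 of 10 tumors. Eif3c was higher by 0.29 (SE 0.08, adjusted p = 0.277 by limma). Eif2b5 differed by -0.37 and Eif2d, an alternative tRNA-delivering factor, by -0.29. The epithelial score averaged -0.535 in IGF1 and 0.353 in vehicle tumors (SD 0.821 over all tumors). With the marker scores in the fit, Eif2b5 differed by -0.22 and Eif2d by -0.15, neither with an unadjusted p under 0.05, and 3 members were higher and 1 lower, against 2.55% and 2.77% of all tested genes.

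Glargine and insulin, which differ by a modified insulin structure, gave 1 member at an unadjusted p under 0.05, against 3.96% of all tested genes (2.1% higher, 1.86% lower), and 0 adjusted calls by limma, as for 0% of all tested genes. That member was Eif3l, higher by 0.19 log2 in glargine tumors, with a 95% interval from 0.01 to 0.37. It no longer passed with quantile normalization (0.16 log2, unadjusted p = 0.0763), the marker scores (0.17, p = 0.0802), a pseudogene score (0.15, p = 0.0975) or the own-chromosome level (0.12, p = 0.0901) in the fit. The adipocyte score averaged 0.635 in glargine and -0.253 in insulin tumors (SD 0.953 over all tumors). Eif5a2 differed by -0.44, with an interval from -0.99 to 0.11, Eif1ax by 0.18 (-0.06 to 0.42) and Eif4g3 by -0.14 (-0.39 to 0.11).

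Members on the same chromosome tended to vary together, though not all did. Eif3d, Eif3e, Eif3h, Eif3l and Eif4b lie on chromosome 15, and Eif2b5, Eif4a2 and Eif4g1 on chromosome 16. Each tumor's chromosome level was taken as the median centred log2 level of the other protein-coding genes there, members left out. This was computed after the data had been seen. Over 46 relations, 36 members had a Pearson correlation with their own chromosome's level at an adjusted permutation p under 0.05 (100000 permutations, two-sided), and 30 were more strongly correlated with it than with any of the other 19 chromosomes. The median r was 0.489, against 0.364 over 13460 other protein-coding genes and 0.0163 with other chromosomes. The share of those other genes that would be counted in either way was not computed, so these counts describe the members alone.

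Eif3l followed chromosome 15 with r = 0.743 and rho = 0.704 (adjusted permutation p = 3.3e-05 for r), and 0.719 without the 2 most distant tumors. Eif4g1 followed chromosome 16 with r = 0.776 and rho = 0.633, and 0.661 without those 2. Eif2s1 followed chromosome 12 with r = 0.823 and rho = 0.804, and 0.804 without those 2. Eif3m on chromosome 2 (r = 0.189) and Eif4g2 on chromosome 7 (r = -0.0499) did not.

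In X10 and IGF1 tumors the median difference of other genes was 0.07 log2 on chromosome 15, the highest of any chromosome, and -0.13 on chromosome 16, the lowest. With the own-chromosome level in the fit, Eif3l differed by 0.16 log2 and Eif3e by 0.24, while Eif3c stayed at 0.21 and passed (adjusted p = 0.0492 by limma). Eif4g1 and Eif2b5 no longer had an unadjusted p under 0.05, and 9 members were higher and none lower, against 4.35% and 7.44% of all tested genes in that fit. Without that level, 7 of the 38 members on other chromosomes were higher and none lower, against 2.61% and 7.32% of all tested genes there. The part of gene copy number in these levels was not tested.

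**Figure D4:**
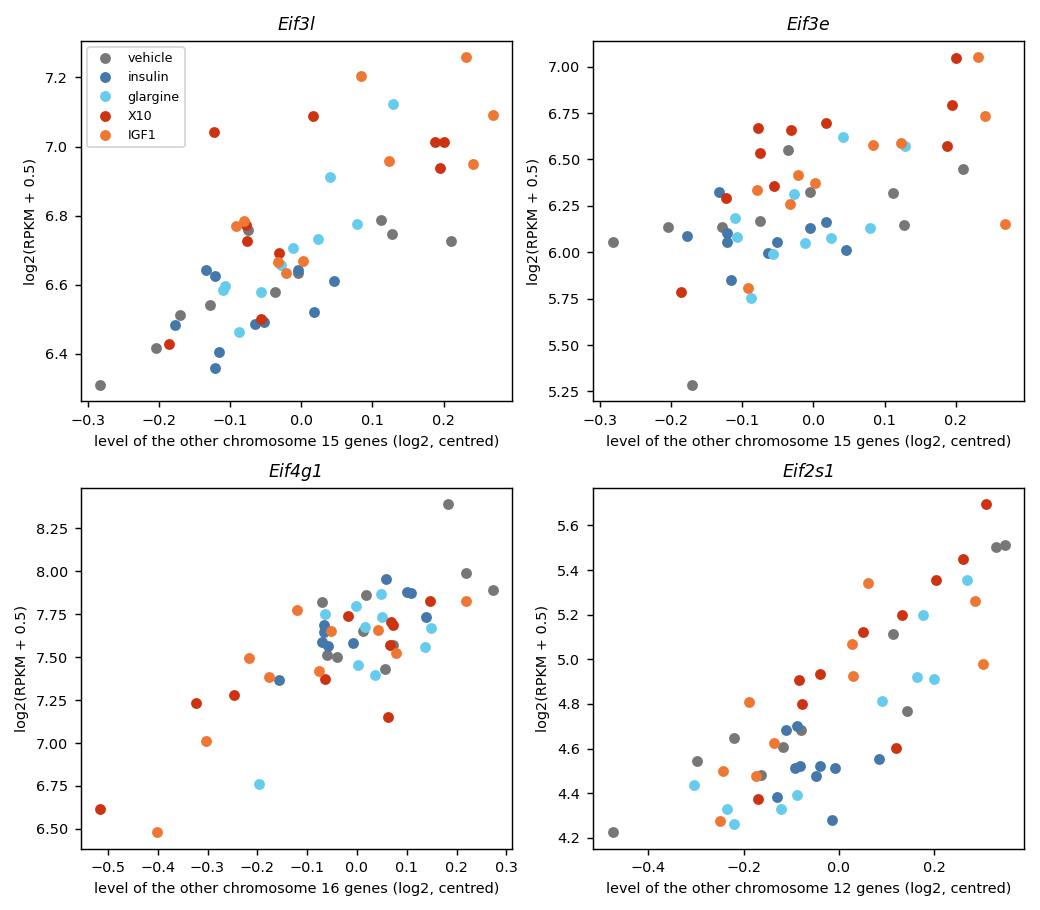
Log2(RPKM + 0.5) of 4 initiation factors (y axis) against the centred log2 level of the other genes of their chromosome (x axis), 1 point for each of 50 tumors, coloured by treatment. The correlations are 0.743 for Eif3l, 0.604 for Eif3e, 0.776 for Eif4g1 and 0.823 for Eif2s1.

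Over 1035 member pairs the median r was 0.143, and over 57 pairs on the same chromosome 0.444. The 6 strongest pairs shared a chromosome. They were Eif3b with Eif4h (0.858), Eif4a1 with Eif5a (0.792), Eif2s1 with Eif5 (0.786), Eif2b3 with Eif3i (0.764), Eif2a with Eif4e (0.76) and Eif2b1 with Eif3b (0.747). Other same-chromosome pairs went apart, such as Eif4g2 with Eif3k (-0.525) and with Eif3f (-0.489) on chromosome 7. On chromosome 16, Eif2b5 had r = 0.226 with Eif4g1 and 0.181 with Eif4a2. The eIF3 subunits did not vary as 1 unit. Their 81 pairs on different chromosomes had a median r of 0.19, against 0.136 over all member pairs on different chromosomes. The 6 eIF3 pairs on chromosome 15 had a median of 0.635, while Eif3f and Eif3a had r = -0.512. Eif4g1 and Eif3k had the lowest r of any pair, -0.65. These are descriptions over 50 tumors that share library preparation and scaling.

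Correlations with tissue and growth scores were computed for 46 members and 8 scores. A score is the mean standardized log2 level of its genes. Of 368 relations, 67 had an adjusted permutation p under 0.05 for Pearson's r, 38 without the 2 tumors farthest from the median score and 37 with treatment means removed.

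With the 79 ribosomal protein genes, 19 members correlated positively and 6 negatively. The smallest r called had a size of 0.365, which 14.9% of the other tested genes reached on the positive and 17.2% on the negative side. Eif3f had r = 0.791 and rho = 0.738 (adjusted permutation p = 0.000526), and r = 0.746 without the 2 most distant tumors. Eif3k had r = 0.731, Eif2b4 0.614 and Eif3i 0.595. Eif4g1 had r = -0.586 and rho = -0.442, and -0.425 without those 2. Eif3a had r = -0.53 and Eif4g2 -0.52, and the latter missed the threshold without those 2. Of the 4 factors listed as TOP-like, Eif3f passed, while Eif3h had r = 0.286, Eif3e -0.186 and Eif4b -0.162.

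With proliferation markers, 17 members correlated positively and 1, Eif3f, negatively (r = -0.37). Among the other tested genes, 16.2% reached 0.37 on the positive and 4.52% on the negative side. Eif4e had r = 0.637 and rho = 0.557, and 0.537 without the 2 most distant tumors. Eif2a had r = 0.614, Eif4g2 0.612, Eif3j1 0.59 and Eif2s1 0.533, all past the threshold also without those 2 and with treatment means removed. The proliferation score differed by 0.0995 between X10 and IGF1 tumors and the others, against an SD of 0.782 over all tumors.

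With leukocyte markers, 8 members correlated negatively and 3 positively. Among the other tested genes, 2.35% reached the smallest called size of 0.366 on the negative and 13.3% on the positive side. Eif2b1, a regulatory subunit of eIF2B, had r = -0.452, Eif3d -0.446, Eif6 -0.437 and Eif3h -0.398, of which Eif2b1 missed the threshold without the 2 most distant tumors. Eif4e3 had the highest, with r = 0.661, rho = 0.662, and 0.685 without the 2 most distant tumors. It also correlated with adipocyte markers (0.433) and endothelial markers (0.455), the last not without 2 tumors (0.287). Eif4g3 had r = 0.496 with leukocyte markers and Eif1b 0.388. Eif2d had r = 0.593 with epithelial markers but rho = 0.278 (adjusted p = 0.212). The epithelial marker Epcam ranged from 0.529 to 302 RPKM and Ptprc, a marker of all leukocytes, from 4.59 to 51.3 RPKM. Between X10 and IGF1 tumors and the others, the fibroblast score differed by -0.357 and the ribosomal protein score by 0.241. With the marker scores in the fit, 11 members were higher and 2 lower in X10 and IGF1 tumors at an unadjusted p under 0.05, against 2.79% and 7.89% of all tested genes, and Eif3l passed (adjusted p = 0.048 by limma).

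**Figure D5:**
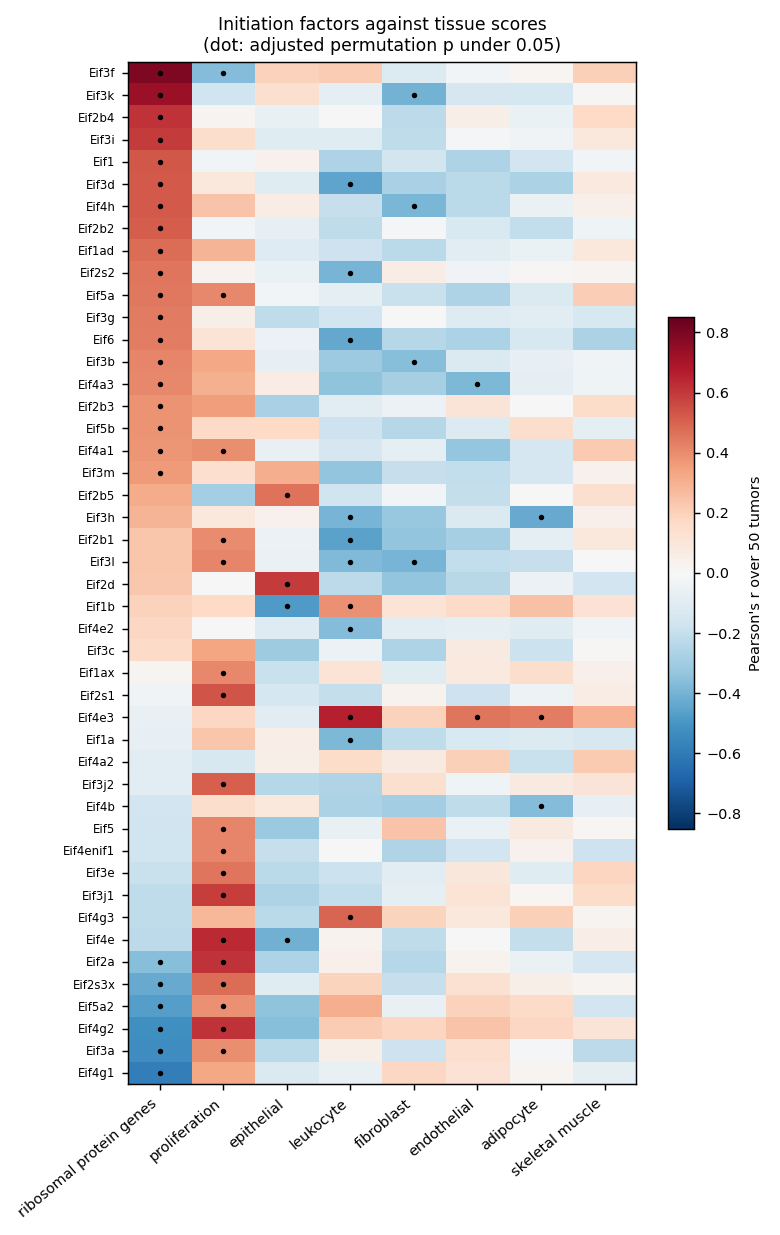
Pearson's r over 50 tumors between each initiation factor (rows, sorted by the ribosomal protein score) and 8 scores (columns), from blue (negative) to red (positive), with a dot where the adjusted permutation p is under 0.05. Eif3f, Eif3k and Eif2b4 are highest with ribosomal protein genes, and Eif4e, Eif2a and Eif4g2 with proliferation markers.

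Genes around the initiation factors were counted from 2 fixed lists. Of 24 tested regulators of initiation, such as eIF4E-binding proteins, eIF2 kinases and mTOR, none passed the adjusted threshold by limma. Between X10 and IGF1 tumors and the others, 2 were higher and 1 lower at an unadjusted p under 0.05, against 2.97% and 7.57% of all tested genes. Insulin minus vehicle had 6 higher and none lower, against 5.98% and 5.17%, and X10 minus insulin, which shares the insulin tumors, had 1 higher and 5 lower, against 3.02% and 8.29%. By the F test Rps6kb2, an S6 kinase, and Mknk1, an eIF4E kinase, had the smallest p (0.00755 and 0.00773). Mknk1 was higher by 0.50 log2 in insulin than in vehicle tumors (SE 0.14, adjusted p = 0.211 by limma). Of 22 elongation, termination and recycling factors, 0 passed the adjusted threshold and 1 was higher at an unadjusted p under 0.05, against the same 2.97%. Eef2k, the kinase of elongation factor 2, and Gtpbp1 had the smallest F test p (0.0194 and 0.0259).

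Retrocopies that the name rule left out were abundant, with means of 148 RPKM for Eif5al3-ps, 120 for Eif4a-ps4 and 58.7 for Eif3s6-ps2, a copy of Eif3e. Reads could be split between such copies and Eif5a, Eif4a1 and Eif3e, whose levels are uncertain to that extent. In X10 and IGF1 tumors Eif3s6-ps2 differed by 0.13 log2 (SE 0.14), Eif3s6-ps1, at a mean of 14.5 RPKM, by -0.14 (SE 0.12), Eif4a-ps4 by -0.21 (SE 0.12) and Eif5al3-ps by -0.30 (SE 0.14).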

How the data were processed

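Poly-A RNA of each tumor was sequenced by the authors on an Ion Proton; they aligned reads to GRCm38 with TopHat2 2.0.10 and Bowtie2, counted them with HTSeq 0.6.1, and deposited RPKM values. The labels also name DESeq2 1.2.10 among the authors' tools. Members, lists and tests were chosen with earlier results of these data known. Values were tested with limma 3.58.1 (R 4.3.3, intensity trend) on log2(RPKM + 0.5) over 16733 genes with a mean of at least 0.5 RPKM. The 5 groups shared 1 fit, two-sided, with a Benjamini-Hochberg threshold of 0.05.

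Library sizes of 26.6 to 51.9 M reads were recovered from the steps of the RPKM values, taken as scaled to 100 M reads. That scale was inferred from the values and is not stated in the paper. Reads were recovered for 16115 genes and 45 members, and in every tumor at least 96.3% of low values were whole within 0.55 scaled reads. The lowest count of these members in any tumor was 54 reads. Labels give a separate mouse number for each tumor. They number the sequencing samples in blocks by treatment and give no batch or date, so any effect of that order and of treatment cannot be told apart.

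Named genes are those with an adjusted call, the smallest p in the F test and in each direction of each comparison, the extremes of level and CV, and fixed factors and paralogs. Gene positions and transcript lengths are from GENCODE M21 (GRCm38). Correlations used 100000 permutations in Python 3.11.15 with numpy 2.4.6. Alternatives were other pseudocounts, filters, scalings and covariates; voom on recovered reads, library size, the chromosome level and leaving out each tumor were added after seeing the data.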

Additional observations from a re-analysis of the deposited data

Results flagged for a closer look

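Each member was examined in each treatment for a highest or lowest tumor set apart from the other 9, with a gap to its neighbour above 0.466 of the group's range. Of 230 groups of 10 tumors, 26 values were apart (11.3 for each 100 groups), and chance alone is said to flag about 1 in 20 groups. They came from 14 tumors, and 8 of the 26 had a chromosome level among the 3 most extreme tumors on the same side. Neither count was set against genes outside the members.

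X10 tumor 95 was the highest of its group for 4 members, all on chromosome 11, whose level was the highest of all 50 tumors (0.296 log2). These were Eif4a1 at 1240 RPKM (group median 587), Eif1 at 1209 RPKM (660), Eif5a at 744.6 RPKM (307) and Eif4a3 at 335.4 RPKM (144). Insulin tumor 37 was the highest of its group for Eif2a at 51.98 RPKM and Eif4e at 49.65 RPKM, both on chromosome 3, whose level was again the highest of all tumors (0.464).

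A vehicle tumor was the highest for Eif2b5 at 68.78 RPKM and the same tumor the lowest for Eif3e at 38.48 RPKM. An IGF1 tumor was the highest for Eif6 at 472.7 RPKM and Eif2b2 at 92.12 RPKM and the lowest for Eif2s3x at 57.09 RPKM. Glargine tumor 47 was the lowest for Eif4g1 at 108.2 RPKM and the highest for Eif3k at 172.4 RPKM, Eif4e2 at 73.87 RPKM and Eif5b at 36.98 RPKM. Glargine tumor 62 was the highest for Eif4b at 110.5 RPKM, Eif3a at 103 RPKM and Eif1ad at 19 RPKM. Other vehicle tumors were the highest for Eif4g1 at 335.1 RPKM, Eif3m at 119.1 RPKM and Eif1a at 89.6 RPKM. Other IGF1 tumors were the highest for Eif3h at 261.4 RPKM and Eif3j1 at 12.03 RPKM. Other X10 tumors were the highest for Eif3j2 at 11.43 RPKM and Eif4e3 at 11.13 RPKM, and another X10 tumor was the lowest for Eif5b at 14.72 RPKM.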

How the results depend on the processing

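No paired analysis was possible because the groups share no mouse numbers. For X10 minus insulin the count of 1 member became 0 with all rows with a nonzero value, no intensity trend, marker scores as covariates, a processed pseudogene score as a covariate, annotated pseudogenes left out, only the 2 groups in the fit, recovered library size as a covariate, and voom on recovered reads, and 7 with array weights. For X10 and IGF1 minus the other groups the count of 0 became 1 with quantile normalization, marker scores, the pseudogene score or the own-chromosome level, 2 with upper quartile scaling and 6 with array weights. The F test count of 0 became 6 with array weights. With these weights 7.24% of all tested genes passed for X10 minus insulin, 3.07% for X10 and IGF1 minus the others and 4.48% in the F test, against 0.102%, 0.155% and 0.102% without them. Leaving out 1 tumor at a time gave 0 to 2 members for X10 minus insulin and 0 to 2 for X10 and IGF1 minus the others. For the other comparisons these fits gave 0 throughout. With the own-chromosome level as a covariate, Eif2a reversed in insulin minus vehicle, to -0.0494 log2. The 67 relations with scores became 38 without the 2 tumors farthest from the median score and 37 with treatment means removed. The causes were not tested. In X10 and IGF1 minus the others, counts of 9 to 19 members higher and 0 to 2 lower at an unadjusted p under 0.05 were seen over the alternatives. Outside the fits without 1 tumor, 437 of 457 alternative values of single members kept their direction and their side of the threshold, 11 gained and 8 lost a call. The 19 came with array weights, where 6.85% of all tested genes were higher and 11.6% lower, against 2.97% and 7.57% without them.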
